A study of Mus musculus with 12 samples.

Results

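Nlrc5 and Ciita, the genes of the MHC class I and MHC class II transactivators, were followed through 4 chromatin marks in 3 states of KPC1199, a line cultured from a mouse pancreatic tumour. Both were found by matching the gene symbol, without regard to case, and each had 1 window, so that 2 of the 25507 gene windows of the table (25450 gene names) are described. NLRC5 and CIITA belong to the NLR family. They are known to bind no DNA themselves: both dock on a complex of RFX, NF-Y and CREB proteins that sits at MHC promoters, NLRC5 for class I genes and CIITA for class II genes. IFN-gamma is known to induce both through JAK kinases and IRF1, and in most cells other than professional antigen-presenting cells CIITA is absent until IFN-gamma is given. H3K27me3 is laid down by Polycomb complex PRC2 and H2A119Ub, the labels' name for ubiquitinated histone H2A, by PRC1, and both mark repressed genes. H3K4me3 marks active promoters, and H3K27Ac marks active promoters and enhancers.

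CUT&Tag, which releases the DNA beside a chromatin mark with a tethered transposase, was run once per mark and state, giving 12 libraries. The states were PD-L1 high cells given 10 ng/ml IFN-gamma, all cells given 10 ng/ml IFN-gamma with no selection on PD-L1, and all untreated cells, also unselected. All are C57BL/6 cells of 1 line, and how the PD-L1 high cells were separated is not given in the sources used here. With 1 library per mark and state there is no replicate, no test and no p-value. Each interval is at 95% and covers counting error only, which makes it a lower limit of the error because PCR copies without a molecular tag are counted as if independent.

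Levels are normalised tags per 6000 bp window, a reading inferred from the values. A single tag was worth 0.989 to 1.03 in 11 libraries and 1.32 for H2A119Ub in all IFN-gamma treated cells, the shallowest library. Ratios are log2 of the level plus a pseudocount, minus the median ratio over the kept windows of the mark, which lie at or above the level of its median window. That median itself differed by 0.22 to 0.24 between all IFN-gamma treated and untreated cells in the 4 marks, and by -0.13 (H3K27me3), 0.09 (H2A119Ub), 0.31 (H3K4me3) and 0.20 (H3K27Ac) between PD-L1 high and untreated cells, and all ratios are relative to it. Both contrasts with untreated cells share the untreated library, and where a pair of ratios follows the levels, the first is for PD-L1 high and the second for all IFN-gamma treated cells, each over untreated cells. By H3K4me3 the libraries carried ductal and epithelial genes: 7 of 8 markers passed the level filter, with Cldn4 below it, and their levels summed to 7010.1 in PD-L1 high, 6944 in all IFN-gamma treated and 5602 in untreated cells. None of 10 leukocyte and antigen-presenting cell markers passed, and these summed to 118, 146 and 211 tags in the same order of states. Of 8 fibroblast and endothelial markers, 3 passed (Pdgfra, Pdgfrb and Col1a1), and the 8 summed to 717.8, 659.5 and 725.8 tags in that order. All these sums are uncentred. The median H3K4me3 window held 51.45 tags in PD-L1 high, 52.64 in all IFN-gamma treated and 66.71 in untreated cells.

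The promoters of 3 genes are shown because they carry the elements through which these transactivators and IFN-gamma are known to act, or lie within the Nlrc5 gene. Each is the 250 bases before a RefSeq transcript start (GRCm38.p6, the assembly of mm10), 5' to 3' on the strand of the gene. Capitals mark matches, on either strand, to CCAAT, the box bound by NF-Y, to CACGTG, an E box bound by USF1, or to a pair of GAAA cores with any 2 bases between them, a site of IRF factors. The first is 9330175E14Rik, a long noncoding RNA whose promoter, at chr8:94435104-94435353 on the minus strand, lies inside the annotated span of Nlrc5. B2m, at chr2:122147437-122147686 on the plus strand, encodes the light chain of MHC class I, and H2-Aa, at chr17:34287824-34288073 on the minus strand, an MHC class II chain.
9330175E14Rik: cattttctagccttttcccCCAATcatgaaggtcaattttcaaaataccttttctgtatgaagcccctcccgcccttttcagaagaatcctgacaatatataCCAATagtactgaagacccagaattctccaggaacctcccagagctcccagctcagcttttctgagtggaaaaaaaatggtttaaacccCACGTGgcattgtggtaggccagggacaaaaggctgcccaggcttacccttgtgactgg
B2m: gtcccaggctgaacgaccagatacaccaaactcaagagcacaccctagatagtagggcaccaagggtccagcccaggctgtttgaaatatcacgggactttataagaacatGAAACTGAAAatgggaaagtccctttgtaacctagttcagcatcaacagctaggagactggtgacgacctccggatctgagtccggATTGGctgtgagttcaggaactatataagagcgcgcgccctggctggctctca
H2-Aa: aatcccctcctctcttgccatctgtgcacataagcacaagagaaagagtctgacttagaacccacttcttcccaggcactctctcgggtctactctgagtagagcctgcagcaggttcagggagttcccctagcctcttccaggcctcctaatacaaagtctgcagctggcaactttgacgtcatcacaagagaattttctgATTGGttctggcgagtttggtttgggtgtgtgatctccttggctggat
The 9330175E14Rik promoter held 2 CCAAT boxes and an E box 59 to 54 bases before the start. The B2m promoter held the IRF pair 139 to 130 bases and a CCAAT box 53 to 49 bases before the start. The H2-Aa promoter held a CCAAT box 48 to 44 bases before the start. Of 32851 RefSeq promoters of this length, 33.8% held CCAAT, 6.02% CACGTG and 2.98% the pair of GAAA cores on either strand, so each match is a description and not a site. No promoter is printed for Nlrc5 or Ciita.

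The Nlrc5 window held far less H3K27me3 in both IFN-gamma states than in untreated cells, and its H2A119Ub was at a like level in all 3. H3K27me3 at Nlrc5 stood at 42.2 tags in PD-L1 high cells (interval 30.4 to 57.1), 43.1 in all IFN-gamma treated cells (31.1 to 58.1) and 243 in untreated cells (213 to 276). The untreated library was therefore the high one, with an interval clear of both others, and the 2 IFN-gamma libraries overlapped each other. In untreated cells the level exceeded that of 93.4% of windows and was 17.1 times the median window. It was 4.67 times the median window in PD-L1 high cells and 2.83 times in all IFN-gamma treated cells, so Nlrc5 still stood above the median window in every state.

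On the log2 scale, Nlrc5 H3K27me3 was -2.66 (-3.22 to -2.24) in all IFN-gamma treated over untreated cells, 6.33-fold lower and the 4th lowest of 12763 kept windows. In PD-L1 high over untreated cells it was -2.34 (-2.91 to -1.92), 5.08-fold lower and the 29th lowest. Of the 2 transactivators, 1 was thus at least 2-fold lower in each contrast, where 4.51% of kept windows were so in all IFN-gamma treated and 8.88% in PD-L1 high over untreated cells. Between PD-L1 high and all IFN-gamma treated cells Nlrc5 differed by 0.23 (-0.42 to 0.88), and neither transactivator was 2-fold apart there, against 1.37% of kept windows higher and 12.6% lower. H3K27me3 at Nlrc5 was thus low in selected and unselected IFN-gamma treated cells, and the interval between them allows a difference of up to 0.88.

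Few windows with as much H3K27me3 in untreated cells as Nlrc5 were so much lower. Of the 1685 windows at or above the untreated level of Nlrc5, 4 (0.237%) were at least 2-fold lower in all IFN-gamma treated cells, and likewise 4 in PD-L1 high cells. The median of these windows was 0.08 in all IFN-gamma treated and 0.69 in PD-L1 high over untreated cells, so in the PD-L1 high library the strongly marked windows as a class sat above the centring median. Nlrc5 was the 2nd lowest of the 1685 in both contrasts. The lowest was Mir7072, a microRNA gene within Nlrc5, and 9330175E14Rik, at the low-coordinate end of Nlrc5, was 3rd lowest in all IFN-gamma treated and 4th in PD-L1 high over untreated cells. The remaining one was 2700054A10Rik, at -1.08 in all IFN-gamma treated and -1.94 in PD-L1 high over untreated cells. So 3 of the 4 strongly marked windows that were 2-fold lower belong to or overlap 1 gene span.

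**Figure D1:**
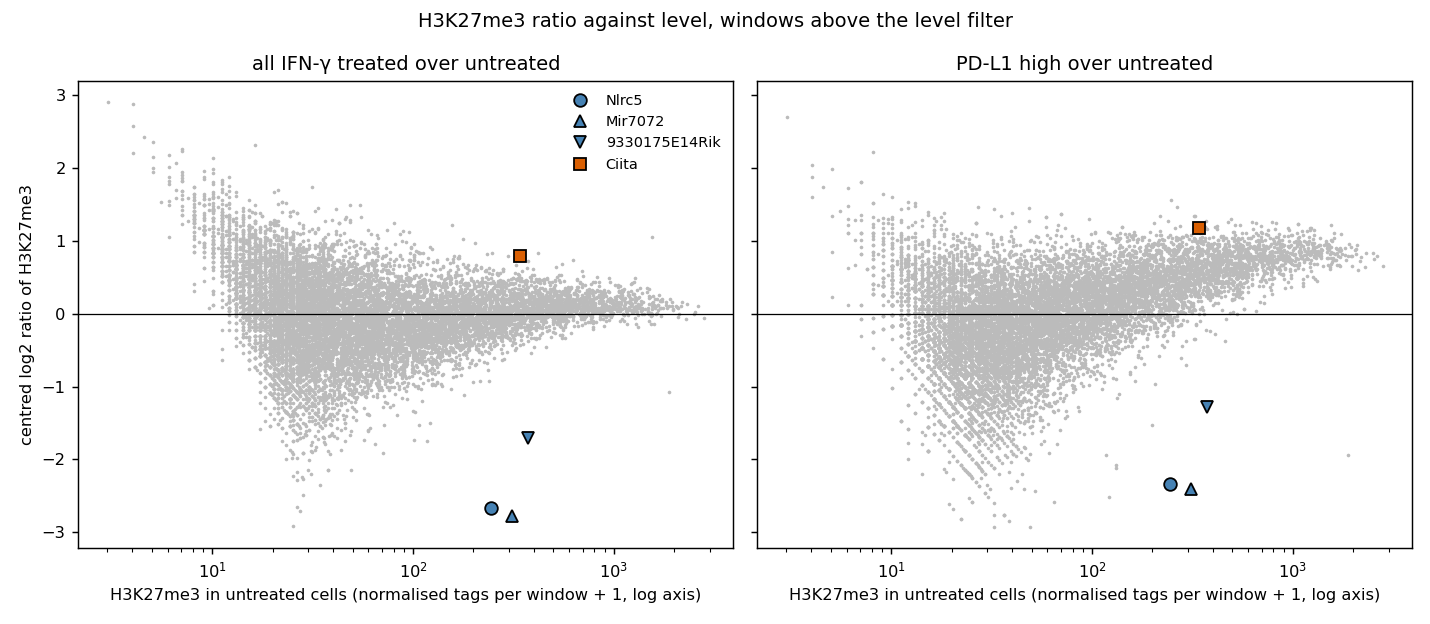
Centred log2 ratio of H3K27me3 (y axis) against its level in untreated cells (x axis, normalised tags per window plus 1, log axis) for windows at or above the level filter (grey points); left, all IFN-gamma treated over untreated cells, right, PD-L1 high over untreated cells. Nlrc5, Mir7072 and 9330175E14Rik lie far below most windows of like level, and Ciita lies at the upper edge.

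PRC1's mark at Nlrc5 differed by less than counting error. H2A119Ub was 55.7 tags in PD-L1 high (41.9 to 72.6), 67.2 in all IFN-gamma treated (50.05 to 88.4) and 59.2 in untreated cells (44.9 to 76.6), with all 3 intervals overlapping. The ratio was -0.08 (-0.63 to 0.51) in all IFN-gamma treated and -0.16 (-0.73 to 0.39) in PD-L1 high relative to untreated cells, and -0.10 (-0.71 to 0.45) in PD-L1 high against all IFN-gamma treated cells. The level was 1.40 to 1.55 times the median window in the 3 states. The intervals against untreated cells reach 0.73 below and 0.51 above equal levels, so smaller differences were not detectable at this depth.

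The active marks were low in the Nlrc5 window in every state. H3K4me3 counted 10.4 tags in PD-L1 high, 9.93 in all IFN-gamma treated and 22.4 in untreated cells, all below the median window and below the filter level of 57.6 tags. The ratio, -1.27 (-2.65 to -0.27) in all IFN-gamma treated and -1.29 (-2.63 to -0.30) in PD-L1 high over untreated cells, was negative as it was for most weak windows: 16.6% and 21.8% of all windows were at least 2-fold lower in these contrasts, and windows in the same decile of H3K4me3 level had medians of -0.89 and -1.18. H3K27Ac was 26.3 tags in PD-L1 high, 20.8 in all IFN-gamma treated and 21.8 in untreated cells, also below the filter. Its ratios of 0.02 (-0.81 to 0.97) in PD-L1 high and -0.30 (-1.26 to 0.63) in all IFN-gamma treated over untreated cells had intervals across 0. Under quantile normalization the H3K4me3 ratio of Nlrc5 was -0.22 in PD-L1 high and -0.44 in all IFN-gamma treated over untreated cells, and without centring it was -0.98 in PD-L1 high over untreated cells, all short of 2-fold.

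**Figure D2:**
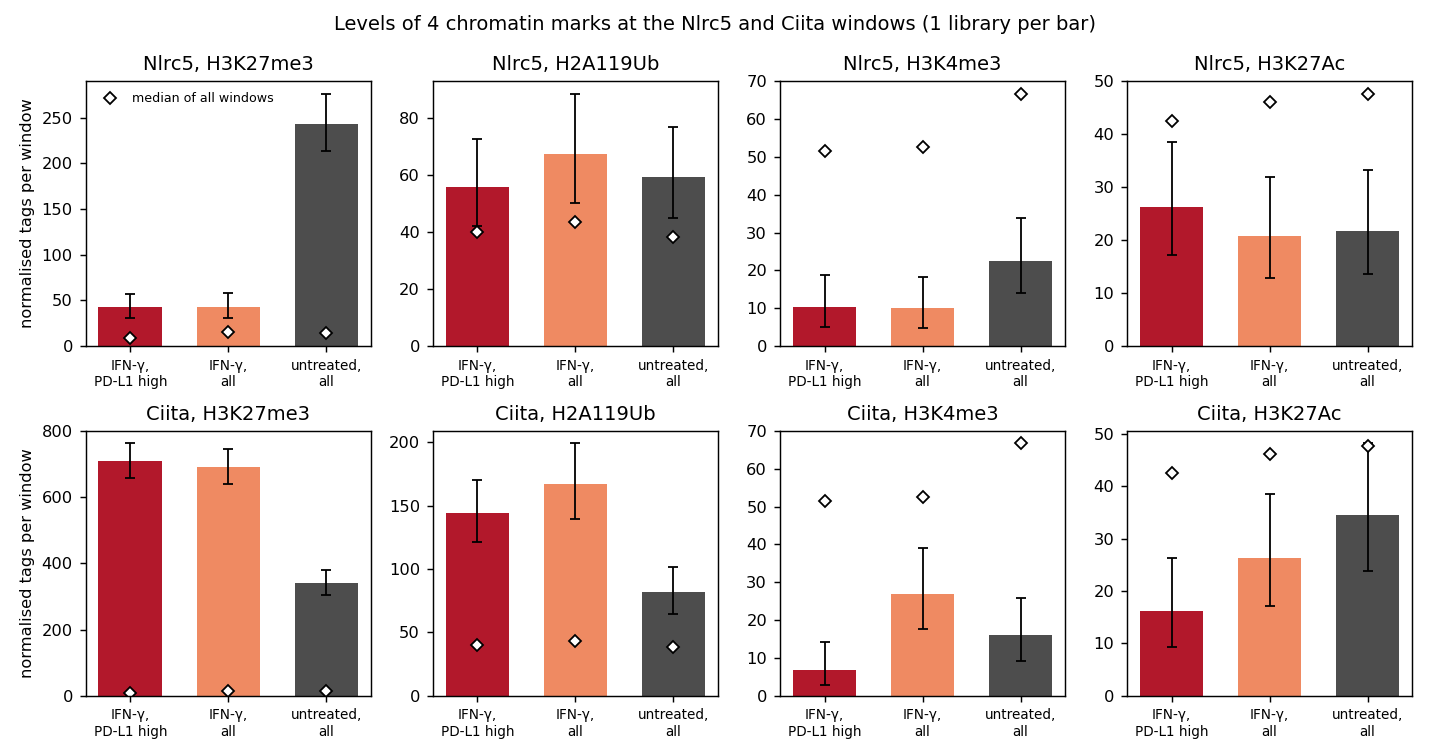
Normalised tags per 6000 bp window (y axes, from 0, scaled per panel) of each mark at Nlrc5 (top) and Ciita (bottom) in PD-L1 high, all IFN-gamma treated and untreated cells; 1 library per bar, error bars are exact Poisson intervals at 95%, diamonds are the median of all windows. H3K27me3 is low at Nlrc5 (42.2 and 43.1 against 243 tags) and high at Ciita (709 and 692 against 340.3 tags) in the IFN-gamma states.

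A higher active mark at this locus was found in the window of 9330175E14Rik, a gene that overlaps Nlrc5. Whether this signal belongs to Nlrc5 or to 9330175E14Rik was not tested. Nlrc5 spans chr8:94434335-94527272, and 9330175E14Rik, at chr8:94433127-94435103, overlaps its low-coordinate end and starts 768 bp inside it. H3K4me3 at 9330175E14Rik was 197 tags in PD-L1 high, 169 in all IFN-gamma treated and 36.3 in untreated cells. Its ratio of 2.07 (1.61 to 2.68) in PD-L1 high over untreated cells was the 20th highest of 12754 kept windows, and that of 1.93 (1.47 to 2.55) in all IFN-gamma treated over untreated cells the 19th highest. H3K27me3 there was 139 tags in PD-L1 high, 132 in all IFN-gamma treated and 373 in untreated cells, with ratios of -1.29 and -1.70. So this window combined a higher H3K4me3 with a lower H3K27me3, while H3K27Ac, at 25.3, 41.5 and 23.3 tags in the same order of states, stayed below the filter. H2A119Ub was 61.3 tags in PD-L1 high, 58.0 in all IFN-gamma treated and 79.2 in untreated cells, a ratio of -0.42 (-0.97 to 0.05) and -0.64 (-1.26 to -0.14).

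Where the Nlrc5 window itself was placed is not given in the sources used here. Windows of 6000 bp centred on the low-coordinate end of Nlrc5 and on the start of 9330175E14Rik would share 5232 bp (87.2%), yet their H3K4me3 levels in PD-L1 high cells were 10.4 and 197 tags. The window listed as Nlrc5 is therefore not described here as its promoter. Mir7072, 70711 bp from the low-coordinate end, had H3K27me3 of 52.3 tags in PD-L1 high, 51.2 in all IFN-gamma treated and 311 in untreated cells, ratios of -2.40 (-2.90 to -2.02) and -2.78 (-3.28 to -2.39). H2A119Ub at Mir7072 was 48.6, 56.7 and 88.5 tags in the same order of states, with ratios of -0.85 (-1.50 to -0.42) and -0.81 (-1.45 to -0.34). Mir7072 thus had less of both Polycomb marks. In the Nlrc5 window H2A119Ub lay within counting error of untreated cells, but its intervals overlap those of Mir7072, so no difference between these windows is read from them.

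Outside the span the H3K27me3 differences were smaller or rested on few tags. Slc12a3, which encodes a kidney sodium chloride transporter and starts 105 kb away, had H3K27me3 of 125 tags in PD-L1 high, 155 in all IFN-gamma treated and 187 in untreated cells, ratios of -0.45 (-0.80 to -0.12) and -0.49 (-0.81 to -0.17). Herpud1 and Cpne2, the nearest genes on either side outside the span, held at most 19.3 tags of H3K27me3 in any state, and the ratio of -1.28 (-3.16 to -0.17) at Cpne2 in PD-L1 high over untreated cells came from 6.04 against 19.3 tags. Herpud1, an endoplasmic reticulum stress gene, had H3K4me3 of 767 tags in PD-L1 high, 727 in all IFN-gamma treated and 704 in untreated cells. Its H2A119Ub was 70.5, 84.4 and 34.0 tags in the same order, with ratios of 0.81 (0.35 to 1.61) and 0.90 (0.45 to 1.73), which ranked 128th and 113th highest of 12754 kept windows. PRC1's mark was thus higher at this neighbour. The Nlrc5 window lay within counting error of untreated cells, with intervals that narrowly overlap those of Herpud1.

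**Figure D3:**
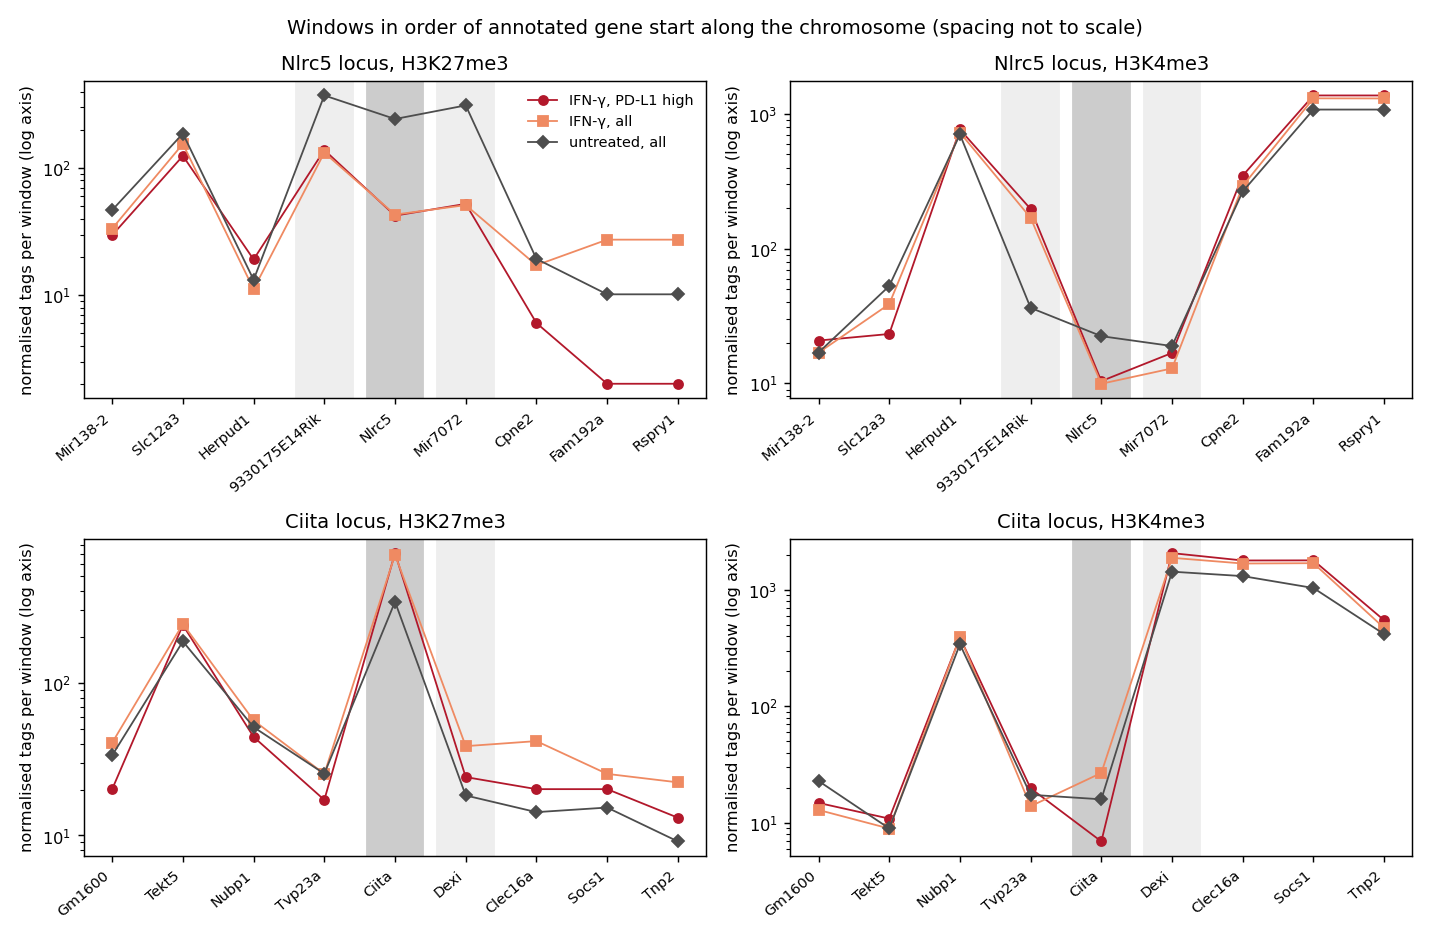
H3K27me3 (left) and H3K4me3 (right) in normalised tags per window (y axes, log scale) for the 4 windows on either side of Nlrc5 (top) and of Ciita (bottom), in order of annotated gene start and not to scale; dark bands mark the transactivator and light bands windows of genes that overlap its span. In the Nlrc5 span H3K27me3 is lower in both IFN-gamma states at all 3 windows and H3K4me3 is higher, of these 3, at 9330175E14Rik, while at Ciita H3K27me3 is higher at Ciita itself.

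Ciita differed the other way. Its window held more H3K27me3 and H2A119Ub in both IFN-gamma states than in untreated cells. H3K27me3 at Ciita was 709 tags in PD-L1 high (657 to 763), 692 in all IFN-gamma treated (642 to 746) and 340.3 in untreated cells (305 to 379). Both IFN-gamma libraries were high, with intervals overlapping each other and clear of the untreated one. The level was above that of 97.1% of windows in PD-L1 high, 97.6% in all IFN-gamma treated and 95.4% in untreated cells.

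The H3K27me3 ratio of Ciita was 1.18 (0.995 to 1.38) in PD-L1 high over untreated cells, 2.27-fold higher, and 0.80 (0.61 to 0.999) in all IFN-gamma treated over untreated cells, 1.74-fold higher. By the 2-fold mark 1 of the 2 transactivators was higher in PD-L1 high cells, where 2.54% of kept windows were, and 0 of 2 in all IFN-gamma treated cells, where 3.79% were. The call in PD-L1 high cells ended under quantile normalization (0.54) and with the filter at the 75th percentile (0.88), and without centring all IFN-gamma treated cells passed the mark (1.02). Against windows of like level, Ciita stood out more in all IFN-gamma treated cells. Of the 1170 windows at or above the untreated level of Ciita, Ciita was the 3rd highest in all IFN-gamma treated cells, after Rn45s (1.06) and Atf3 (0.83), and the 19th highest in PD-L1 high cells. Windows in its own decile of H3K27me3 level had a median of 0.12 (5th to 95th percentile -0.15 to 0.45) in all IFN-gamma treated and 0.74 (0.32 to 1.07) in PD-L1 high over untreated cells. In PD-L1 high against all IFN-gamma treated cells Ciita stood at 0.29 (0.14 to 0.45), below the median of 0.52 of that decile, a ratio that turned to -0.19 under quantile normalization.

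PRC1's mark at Ciita was higher along with PRC2's. H2A119Ub was 144 tags in PD-L1 high (121 to 170.0), 167 in all IFN-gamma treated (139.5 to 199) and 81.8 in untreated cells (64.8 to 102). The IFN-gamma libraries overlapped each other and not the untreated one. The ratio was 0.67 (0.32 to 1.15) in PD-L1 high and 0.73 (0.38 to 1.22) in all IFN-gamma treated over untreated cells, ranked 299th and 314th highest of 12754 kept windows. Neither transactivator was 2-fold apart in H2A119Ub, against 0.227% of kept windows higher and 0.306% lower in PD-L1 high relative to untreated cells, and 0.408% and 0.894% in all IFN-gamma treated over untreated cells. Windows of the same H2A119Ub decile had a median of 0.01 in PD-L1 high and 0.02 in all IFN-gamma treated over untreated cells, with a 95th percentile of 0.54 and 0.56. The contrast of PD-L1 high with untreated cells, which does not use the shallowest library, gave a like value.

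Ciita carried little of either active mark. H3K4me3 was 6.93 tags in PD-L1 high (2.79 to 14.3), 26.8 in all IFN-gamma treated (17.7 to 39.02) and 15.9 in untreated cells (9.11 to 25.9), all below the median window. All IFN-gamma treated cells had the highest level and PD-L1 high cells the lowest, with intervals clear of each other. The ratio was 0.45 (-0.43 to 1.51) in all IFN-gamma treated and -1.32 (-3.03 to -0.15) in PD-L1 high over untreated cells. Under quantile normalization these were 1.25, past the 2-fold mark, and -0.25, short of it. Between PD-L1 high and all IFN-gamma treated cells it was -1.77 (-3.47 to -0.79), on 7 against 27 tags. In that contrast 5.92% of all windows were at least 2-fold lower, and windows of the same decile reached -1.47 at their 5th percentile. H3K27Ac was 16.2 tags in PD-L1 high, 26.3 in all IFN-gamma treated and 34.5 in untreated cells. Its ratio of -1.10 (-2.25 to -0.39) in PD-L1 high over untreated cells passed the 2-fold mark, as did 8.24% of all windows, but was -0.90 without centring and -0.64 under quantile normalization. The ratio in all IFN-gamma treated cells was -0.57 (-1.42 to 0.15).

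The neighbours of Ciita held less H3K27me3 in every state, and several had ratios above 0 on few tags. Ciita spans chr16:10480014-10531064. Tekt5, a sperm tail gene that starts 122 kb away and is itself marked, had 239 tags in PD-L1 high, 243 in all IFN-gamma treated and 187 in untreated cells, ratios of 0.48 (0.20 to 0.77) and 0.16 (-0.12 to 0.45). Dexi, which overlaps the far end of Ciita, had 24.1, 38.5 and 18.3 tags in the same order of states, and its ratio of 0.78 (0.01 to 1.75) in all IFN-gamma treated over untreated cells was close to that of Ciita. Dexi also had an active promoter, with H3K4me3 of 2065 tags in PD-L1 high, 1882 in all IFN-gamma treated and 1431 in untreated cells. Clec16a, the next gene, had H3K27me3 of 20.1, 41.5 and 14.2 tags. Its ratio of 1.20 (0.42 to 2.32) in all IFN-gamma treated over untreated cells rests on these few tags, as does that of 0.90 (-0.11 to 2.37) at Tnp2, a sperm nuclear protein gene with 13.1, 22.3 and 9.14 tags. Socs1, the feedback inhibitor of JAK signalling 304 kb away, had H3K4me3 of 1789.7 tags in PD-L1 high, 1693 in all IFN-gamma treated and 1036 in untreated cells, ratios of 0.48 (0.37 to 0.59) and 0.47 (0.36 to 0.59). Socs1 thus held more of an active mark in the IFN-gamma states, where the Ciita window held more of both Polycomb marks.

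Set side by side, the mean of both Polycomb ratios minus the mean of both active ratios was -0.62 (-1.28 to 0.04) for Nlrc5 and 2.13 (1.48 to 2.79) for Ciita in PD-L1 high over untreated cells. It was -0.59 (-1.26 to 0.08) for Nlrc5 and 0.82 (0.27 to 1.38) for Ciita in all IFN-gamma treated over untreated cells. Over the 12763 windows that pass the H3K27me3 filter the median was 0.36 and 0.30 in these contrasts. Ciita was the 83rd highest in PD-L1 high and the 1799th highest in all IFN-gamma treated over untreated cells. In the latter contrast its interval includes the median of 0.30. Nlrc5 was the 935th lowest in PD-L1 high and the 426th lowest in all IFN-gamma treated over untreated cells. The Nlrc5 value also takes in its weak H3K4me3 signal, which was lower as well. The Ciita value of 2.13 takes in both active marks, below their filters: H3K4me3 at -1.32, near its decile median of -1.18, and H3K27Ac at -1.10. Under quantile normalization the combined values were -1.45 for Nlrc5 and 1.05 for Ciita in PD-L1 high, and -1.31 and 0.20 in all IFN-gamma treated over untreated cells. In PD-L1 high against all IFN-gamma treated cells the combined value was -0.09 (-0.82 to 0.64) for Nlrc5 and 1.25 (0.63 to 1.88) for Ciita. That Ciita value came mostly from its weak active marks (H3K4me3 -1.77, H3K27Ac -0.52), with H3K27me3 at 0.29 and H2A119Ub at -0.07.

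**Figure D4:**
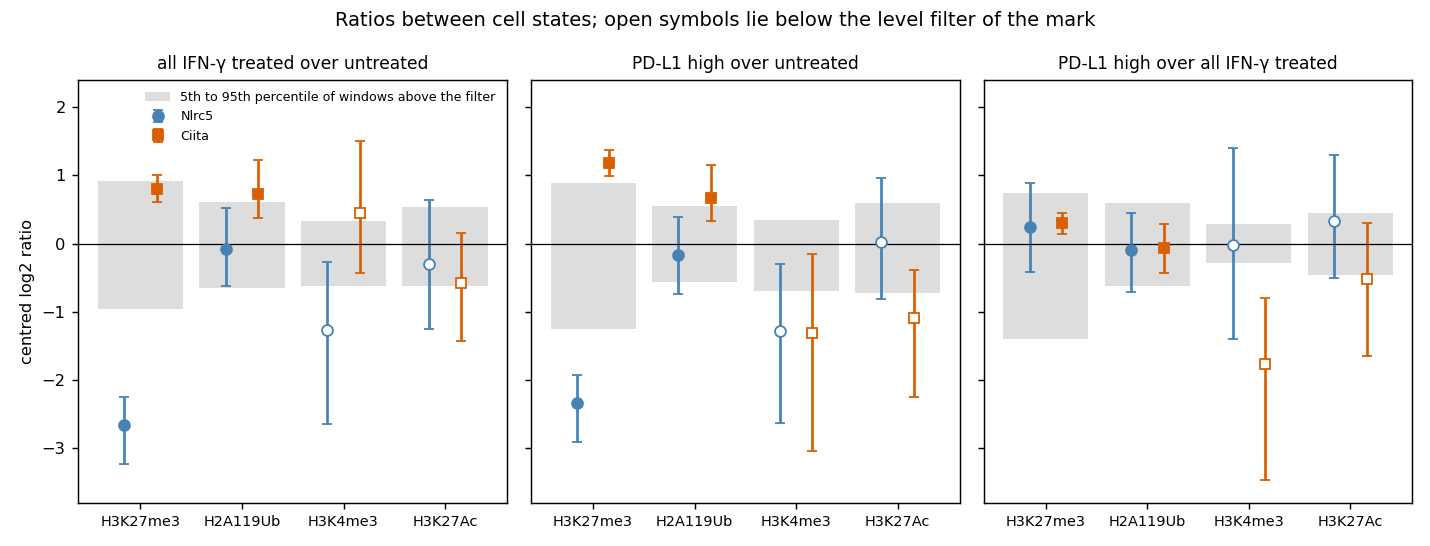
Centred log2 ratios (y axis) of the 4 marks (x axis) at Nlrc5 (circles) and Ciita (squares) in the 3 contrasts; error bars are Clopper-Pearson intervals at 95% of the tags without the pseudocount, grey bars the 5th to 95th percentile of windows above the filter, open symbols windows below it. Nlrc5 H3K27me3 lies far under its grey bar against untreated cells (-2.66 and -2.34), and Ciita H3K27me3 lies above its bar in PD-L1 high over untreated cells (1.18).

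Irf1 had more H3K4me3 in both IFN-gamma states, and Jak2, Irf2 and Prdm1, also of the IFN-gamma route, are given with it. Irf1, which binds the IFN-gamma promoter of Ciita, had 1519 tags of H3K4me3 in PD-L1 high, 1537 in all IFN-gamma treated and 611 in untreated cells. Its ratios of 1.001 (0.868 to 1.141) and 1.10 (0.96 to 1.24) passed the 2-fold mark. Among all kept windows 0.47% were so higher and 2.09% lower in PD-L1 high, and 0.361% and 1.03% in all IFN-gamma treated over untreated cells. Jak2, a receptor kinase, had H3K27Ac of 279 tags in PD-L1 high, 224 in all IFN-gamma treated and 126 in untreated cells, ratios of 0.92 (0.64 to 1.26) and 0.57 (0.27 to 0.92). Irf2, which can oppose IRF1, was 2-fold lower in H2A119Ub in PD-L1 high over untreated cells, as were 0.306% of kept windows. Irf2 had 22.5 tags in PD-L1 high, 57.3 in all IFN-gamma treated and 58.7 in untreated cells. Its ratios were -1.21 (-2.25 to -0.74) and -0.27 (-0.88 to 0.32). Prdm1, a known repressor of Ciita in plasma cells, had H3K4me3 of 295 tags in PD-L1 high, 253 in all IFN-gamma treated and 135 in untreated cells, ratios of 0.80 and 0.66.

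The partners on MHC promoters had no member past 2-fold in H3K4me3 against untreated cells. Of 13 genes for RFX, NF-Y and CREB proteins and the coactivators CBP, p300, PCAF, BRG1 and CARM1, 12 passed the H3K4me3 filter (Nfyc did not), and 0 were 2-fold higher or lower. Of kept windows 0.47% were higher and 2.09% lower in PD-L1 high, and 0.361% and 1.03% in all IFN-gamma treated over untreated cells. The count of 0 of 12 is close to these shares. The median of the 12 was 0.16 in PD-L1 high and 0.14 in all IFN-gamma treated over untreated cells, with 5 and 6 intervals above 0 and 0 below. H3K27Ac also passed its filter at 12, with medians of 0.19 and 0.17 and 0 members past 2-fold. Of kept windows 0.392% were so higher and 1.77% lower in PD-L1 high, and 0.251% and 0.643% in all IFN-gamma treated over untreated cells. In H3K27me3, 8 passed the filter. Rfxank, an RFX subunit, had 40.2 tags in PD-L1 high, 119.04 in all IFN-gamma treated and 41.6 in untreated cells, and Rfxap, another, had 23.1, 45.6 and 14.2. Both were at least 2-fold higher in all IFN-gamma treated over untreated cells, at 1.25 (0.77 to 1.85) and 1.33 (0.57 to 2.44), as no other of the 8 was, against 3.79% of kept windows. In PD-L1 high over untreated cells Rfx5 (-1.08, -3.20 to 0.18) and Creb1 (-1.30, -3.01 to -0.26) were 2-fold lower, on 5.03 and 7.04 tags in PD-L1 high cells, against 8.88% of kept windows. Rfx5, Rfxank and Nfya were 2-fold lower in PD-L1 high than in all IFN-gamma treated cells, as were 12.6% of kept windows.

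The list of MHC class I genes had less H3K27me3 and more H3K4me3 at several members. Whether each member is under NLRC5 in these cells was not tested. All 12 passed the H3K27me3 filter, and 5 were at least 2-fold lower in PD-L1 high over untreated cells (H2-D1, Tap1, Psmb9, Tap2 and Psmb8), 1 (Psmb8) in all IFN-gamma treated over untreated cells, with 0 higher. Of kept windows 8.88% and 4.51% were so lower, and 1 of 12 is close to the second share. Set against all IFN-gamma treated cells, PD-L1 high cells were 2-fold lower at 5 (H2-D1, Tap1, Psmb9, Psmb8 and Tapbp), against 12.6% of kept windows. These calls rest on few tags, from 10.06 at Tapbp to 26.66 at Psmb9 in PD-L1 high cells. The median H3K27me3 window was also lower there, at 9.05 against 15.2 tags in all IFN-gamma treated cells. The median was -0.81 in PD-L1 high and -0.43 in all IFN-gamma treated over untreated cells. Psmb8, an immunoproteasome subunit, had H3K27me3 of 17.6 tags in PD-L1 high, 48.6 in all IFN-gamma treated and 121 in untreated cells, ratios of -2.52 (-3.47 to -1.92) and -1.50 (-2.05 to -1.04). Tap1, a subunit of the peptide transporter, had 26.2, 78.0 and 131 tags in the same order, and Psmb9, its neighbour, had nearly the same values, so these windows are not independent. Unlike Nlrc5, Tap1 and Psmb8 thus had a lower level in PD-L1 high than in all IFN-gamma treated cells, with ratios of -1.25 (-2.02 to -0.66) and -1.11 (-2.08 to -0.39). H3K4me3 passed its filter at 11 of the 12. Tap1, Psmb9, Psmb8 and H2-Q4 were at least 2-fold higher in both contrasts with untreated cells and 0 were 2-fold lower, with medians of 0.54 in PD-L1 high and 0.42 in all IFN-gamma treated cells. Of kept windows 0.47% and 0.361% were so higher in these contrasts, and 2.09% and 1.03% lower. In each contrast 10 of the 11 had intervals above 0. H2-M3 went the other way, short of 2-fold, at -0.51 (-0.77 to -0.26) and -0.63 (-0.90 to -0.37).

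H3K27Ac in the class I genes was 2-fold higher at Tap1, Psmb9 and Psmb8 in PD-L1 high and at Psmb8 in all IFN-gamma treated over untreated cells. Of kept windows 0.392% were so higher and 1.77% lower in PD-L1 high, and 0.251% and 0.643% in all IFN-gamma treated over untreated cells. B2m, whose promoter is shown above, was the 1 class I gene of 12 that was 2-fold lower in H2A119Ub in PD-L1 high over untreated cells, where 0.306% of kept windows were. B2m had 26.6 tags in PD-L1 high, 36.9 in all IFN-gamma treated and 62.8 in untreated cells, a ratio of -1.12 (-2.05 to -0.64) in PD-L1 high over untreated cells. Heavy chain genes such as H2-D1, H2-Q4 and H2-Q7 have near-identical relatives, so their tags could be shared among copies. H2-Q7 had H3K27me3 of 524 tags in PD-L1 high, 418 in all IFN-gamma treated and 409 in untreated cells, ratios of 0.48 (0.29 to 0.67) and -0.19 (-0.39 to 0.01).

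The list of MHC class II genes had Polycomb mark ratios mostly above 0. Whether each member is under CIITA in these cells was not tested. Of 10 genes 9 passed the H3K27me3 filter and 0 were 2-fold apart. Of kept windows 2.54% were 2-fold higher and 8.88% lower in PD-L1 high, and 3.79% and 4.51% in all IFN-gamma treated over untreated cells. The median of the 9 was 0.34 in PD-L1 high and 0.29 in all IFN-gamma treated over untreated cells. The ratio was above 0 at 8 of 9 in PD-L1 high and at 9 of 9 in all IFN-gamma treated over untreated cells, where centring puts the median of kept windows at 0. Strongly marked windows lay above 0 as a class, with medians of 0.69 and 0.08 in these contrasts over the 1685 at or above the untreated level of Nlrc5 (243 tags). Windows in the H3K27me3 decile of Nlrc5 had medians of 0.21 and -0.11. Some class II genes held less than the 1685 windows, such as H2-DMa with 46.2 and H2-Aa with 138 tags in untreated cells. These windows are thus not matched to the list, and whether the signs are particular to class II genes was not tested. H2-DMb2, a chain of the peptide editor H2-M, was the most marked, with H3K27me3 of 1495 tags in PD-L1 high, 1281 in all IFN-gamma treated and 897 in untreated cells. In H2A119Ub 8 passed and 0 were 2-fold apart, with medians of 0.39 in PD-L1 high and 0.33 in all IFN-gamma treated over untreated cells. Of kept windows 0.227% were 2-fold higher and 0.306% lower in the first contrast, and 0.408% and 0.894% in the second. H2-Aa, whose promoter is shown above, had H2A119Ub of 79.7 tags in PD-L1 high, 90.9 in all IFN-gamma treated and 41.7 in untreated cells, ratios of 0.73 (0.28 to 1.44) and 0.75 (0.31 to 1.48). H2-DMb1 had 215, 243 and 113 tags, with ratios of 0.79 (0.50 to 1.18) and 0.81 (0.51 to 1.22).

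Active marks passed their filters at few genes of the class II list. H3K4me3 did so at 2 of 10 genes and H3K27Ac at 3 (H2-DMa, H2-DMb1 and Cd74). H2-DMa, with 3035 tags in PD-L1 high, 3012 in all IFN-gamma treated and 2252 in untreated cells, had ratios of 0.12 in PD-L1 high and 0.19 in all IFN-gamma treated over untreated cells. H2-DMb1 had 129 tags of H3K4me3 in PD-L1 high, 114 in all IFN-gamma treated and 40.8 in untreated cells. It was the 1 of these 2 at least 2-fold higher, with ratios of 1.31 (0.83 to 1.90) and 1.20 (0.72 to 1.80). Of kept windows 0.47% were so higher in PD-L1 high and 0.361% in all IFN-gamma treated over untreated cells. Cd74, the invariant chain, lay below the H3K4me3 filter with 56.4, 52.6 and 23.9 tags of that mark. Its H3K27Ac was 60.7 tags in PD-L1 high, 69.9 in all IFN-gamma treated and 30.4 in untreated cells, with ratios of 0.69 (0.14 to 1.48) and 0.84 (0.32 to 1.63). Cd74 was also the 1 gene of the 10 without H3K27me3 above the filter.

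**Figure D5:**
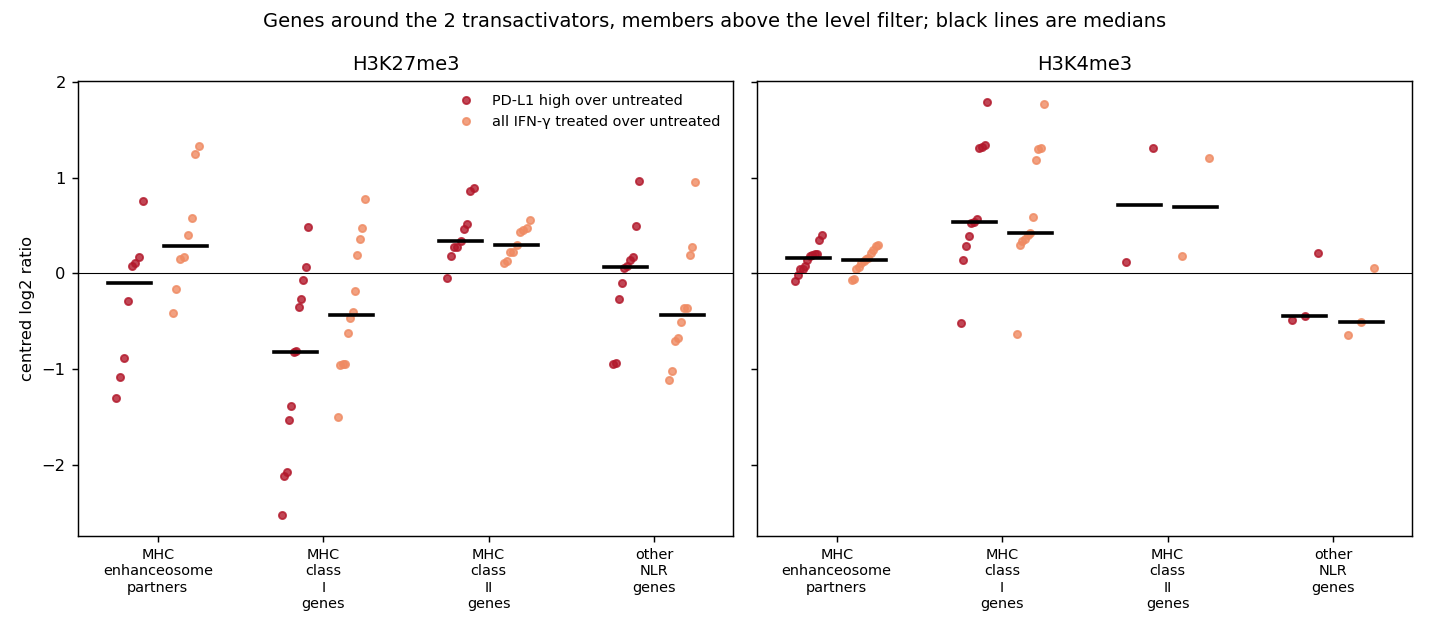
Centred log2 ratios (y axes) of H3K27me3 (left) and H3K4me3 (right) for members of 4 gene lists (x axes) that lie above the level filter, in PD-L1 high over untreated cells (dark points, left of each pair) and all IFN-gamma treated over untreated cells (light points); black lines are medians. H3K27me3 medians are -0.81 and -0.43 for class I genes and 0.34 and 0.29 for class II genes.

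Of 16 other genes of the NLR family, 10 passed the H3K27me3 filter, and their ratios lay between -0.94 and 0.96 in PD-L1 high and between -1.11 and 0.96 in all IFN-gamma treated over untreated cells. Below the filter, Nlrp12 was listed at 0 in PD-L1 high cells, against 9.12 tags in all IFN-gamma treated and 10.2 in untreated cells. The median was -0.43 in all IFN-gamma treated over untreated cells, and 0.07 in PD-L1 high over untreated cells, which turned negative without centring and without the level filter. Naip5 (-1.11, -2.09 to -0.32) and Naip6 (-1.02, -1.73 to -0.41), near-identical neighbours that detect bacterial flagellin and whose tags could be shared, were 2-fold lower in all IFN-gamma treated over untreated cells, on 18.2 and 32.9 tags in that state, against 4.51% of kept windows. Nlrp6, an intestinal inflammasome receptor, was the most marked of these 16, with H3K27me3 of 825 tags in PD-L1 high, 612 in all IFN-gamma treated and 461 in untreated cells, ratios of 0.96 (0.80 to 1.14) and 0.19 (0.01 to 0.37). H3K4me3 passed at 3 of the 16, with 0 members 2-fold apart against untreated cells. Of kept windows 0.47% were 2-fold higher and 2.09% lower in PD-L1 high, and 0.361% and 1.03% in all IFN-gamma treated over untreated cells. Nod1, a sensor of bacterial cell wall fragments, had H3K27Ac of 71.9 tags in PD-L1 high, 109 in all IFN-gamma treated and 39.6 in untreated cells, with ratios of 0.58 (0.08 to 1.26) and 1.11 (0.68 to 1.79).

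Windows with microRNA, Gm, Rik and other clone or small RNA names were left out of the search for like windows. Over the 12 libraries, the closest of the remaining windows to Nlrc5 in level of all marks were Olfr523, F7, Pnpla5, Arhgef4 and Proz. Their Euclidean distances were 1.82 to 1.91 against a median of 9.91 over the searched windows. These windows shared its low active marks, but their H3K27me3 differed less: H3K27me3 at F7, the gene of coagulation factor VII, was 67.4 tags in PD-L1 high, 60.8 in all IFN-gamma treated and 105 in untreated cells. This holds for the searched windows only. Mir7072, among those left out, had H3K27me3 ratios of -2.40 and -2.78, close to those of Nlrc5, and also low active marks. The closest to Ciita were Adamts8, Htr2a, Sbk1, Htr5b and Fgf23, at 1.21 to 1.47 against a median of 13.1. Adamts8, a secreted metalloprotease gene, had H3K27me3 of 851 tags in PD-L1 high, 744 in all IFN-gamma treated and 538 in untreated cells, and H2A119Ub of 186, 163 and 113 tags. Ranked by Pearson correlation in place of distance, 0 of the 5 windows were the same for either gene, so these lists depend on the measure.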

How the data were processed

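The deposited table gives 1 normalised signal per gene window and library, made by the authors. Per the submitters' processing notes the tools include MACS2 2.2.7.1, HOMER and Bowtie2 2.4.2, with the build mm10 and no stated role or order. No source used here gives the window placement, duplicate removal or scaling. Multiplied by 6000, all values of the signal fell within 10% of a multiple of 0.5 tags, so the deposited signal was read as tag density over 6000 bp. On the assumption of scaling to 10 Mtag (Mtag, mega-tags), the depth was 7.59 Mtag for H2A119Ub in all IFN-gamma treated cells and 9.72 to 10.1 Mtag in the other 11 libraries.

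The pseudocount was the 10th percentile of values above 0 of a mark (2.03 tags for H3K27me3, 8.18 for H2A119Ub, 1.99 for H3K4me3, 5.06 for H3K27Ac). Windows with a mean level at or above the median window were kept (filter levels 12.8, 41.1, 57.6 and 46.3 in the same order of marks). Ratios understate differences at low levels. Levels have exact Poisson and ratios Clopper-Pearson intervals. The combined Polycomb minus active values have intervals from a normal approximation of counting error. It includes the pseudocount, which narrows these intervals for weak windows, and it is rough where tags are few. A 2-fold difference was counted in place of a test. Nlrc5 and Ciita, the gene lists and the rule for named genes (members of a list past 2-fold, 4 neighbours on either side, 5 most alike windows without clone or small RNA names) were chosen with earlier results of these data known. Jak2, Prdm1, H2-M3, H2-Q7, H2-DMb2, H2-DMa, H2-Aa, Cd74, Nlrp6 and Nlrp12 were named after their values were seen. Gene spans and promoters come from RefSeq (GRCm38.p6), where 25203 windows (98.8%) matched. Counts and medians over the genes of the IFN-gamma route, and 1 item of it, are not reported here. Alternatives were no centring, quantile normalization, other pseudocounts and other filters. Scripts were tested on simulated data. Python 3.11.15, numpy 2.4.6, pandas 2.3.3, scipy 1.17.1 and matplotlib 3.10.9 were used.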

Additional observations from a re-analysis of the deposited data

How the results depend on the processing

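Of the 168 alternative values of the ratios of Nlrc5 and Ciita, 161 moved by less than the counting interval. Under quantile normalization Nlrc5 H3K4me3 in PD-L1 high over untreated cells was -0.22, the combined shift of Nlrc5 was -1.45 in PD-L1 high and -1.31 in all IFN-gamma treated over untreated cells, and that of Ciita 1.05 and 0.20. Under it Ciita H3K27me3 was 0.54 in PD-L1 high over untreated cells, below the 2-fold mark, and -0.19 in PD-L1 high against all IFN-gamma treated cells, a reversed sign. Without centring, Ciita H3K27me3 was 1.02 in all IFN-gamma treated over untreated cells, past the 2-fold mark, and 0.033 in PD-L1 high against all IFN-gamma treated cells. With a filter at the 75th percentile it was 0.88 in PD-L1 high over untreated and 0.012 in PD-L1 high against all IFN-gamma treated cells. The cause was not tested. Nlrc5 H3K27me3 ranged from -2.65 to -2.18 in PD-L1 high and from -2.89 to -2.44 in all IFN-gamma treated over untreated cells. At 9330175E14Rik, added after seeing the data, H3K4me3 ranged from 2.01 to 2.64 and from 1.86 to 2.53 in the same contrasts.

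Counts over kept windows depended on the scaling. H3K27me3 in PD-L1 high over untreated cells had 324 windows at least 2-fold higher and 1133 lower, against 127 and 1525 uncentred, or 371 and 479 quantile-normalized. In all IFN-gamma treated over untreated cells it had 484 and 575, against 907 and 286, or 641 and 534, and in PD-L1 high against all IFN-gamma treated cells 175 and 1607, against 63 and 2628, and 424 and 658. H3K4me3 had 60 and 267 in PD-L1 high relative to untreated cells (94 and 99 without centring, 97 and 56 after quantile normalization) and 46 and 131 in all IFN-gamma treated over untreated cells (66 and 23, 78 and 13). H3K27Ac had 50 and 226 (191 and 113, 130 and 134) and 32 and 82 (133 and 24, 92 and 55) in the same contrasts, and H2A119Ub 29 and 39 (63 and 15, 43 and 39) and 52 and 114 (249 and 28, 78 and 92). Of 120 alternative counts 70 lay more than 1.5 times from the main one, 24 of them without the level filter. No paired analysis was possible because each mark and state has 1 library. A difference between conditions cannot be told apart from one between single libraries.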
